A study of Homo sapiens with 19 samples.

Results

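Wide Pol II domains were the peaks of the RNA polymerase II (Pol II) list of mock-treated U2OS cells that spanned 2000 bp or more. There were 1533 of them among 30760 mock Pol II peaks, or 4.98%, and they held 4030000 bp, which is 18.9% of all base pairs in that list. The domains were chosen by their measured width, so the width is described here and supports nothing. The median domain was 2300 bp wide, the quartiles were 2100 and 2800 bp, and the widest reached 12400 bp. Of the 1533 domains, 308 spanned 3000 bp or more and 42 spanned 5000 bp or more.

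Pol II transcribes protein-coding genes, and it gathers both at the start of a gene, where it pauses, and past its end, where it slows before release. MED26 is a subunit of Mediator that helps paused Pol II pass into elongation by bringing in elongation factors. EP400 is an ATPase that remodels chromatin within the TIP60 complex and can place the variant histones H3.3 and H2A.Z in nucleosomes.

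U2OS is an established human osteosarcoma line, grown here in DMEM with Tet-approved fetal bovine serum. Mock cells had received siRNA against GFP and depleted cells siRNA against EP400, both harvested 72 hr after transfection. ChIP of Pol II, MED26, H3.3 and H2AZ was done once per condition, H3K18ac and H3K4me1 were mapped in mock cells only, and RNA-seq was done once per condition. EP400 itself was mapped in 3 immunoprecipitations that came as 1 peak list, for which the labels give no siRNA treatment. With 1 library per antibody and condition, no difference below has a replicate check or a test, and a difference between conditions cannot be told apart from a difference between libraries.

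The peak lists give positions without height or depth. After EP400 siRNA the Pol II list had 20987 peaks over 13.1 Mb, against 21.3 Mb in mock cells, so the whole list was shorter, and the depth behind it is unknown. EP400 mRNA stood at 10.04 FPKM (fragments scaled to transcript length and library size) in mock cells against 2.28 FPKM in depleted cells. The mesenchymal genes VIM (618 FPKM), SPARC (229 FPKM) and COL1A1 (376 FPKM) were expressed in mock cells, while COL1A2 (0.0114 FPKM) was near 0. FN1 (23.4 FPKM), CD44 (16.4 FPKM) and the bone gene RUNX2 (1.51 FPKM) lay between. The blood, endothelial and 3 of the 5 epithelial markers were below 1 FPKM, but KRT8 (369 FPKM) and KRT18 (519 FPKM) were abundant. Of the neural markers RBFOX3 stood at 11.2 FPKM, MAP2 at 0.161 FPKM and GFAP at 0.203 FPKM.

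Most domains lay at genes. A gene end was taken as 2 kb to each side of either end of a transcript locus, because the loci carry no strand, so starts and ends of genes were counted together. By that measure 1187 of 1533 domains (77.4%, Wilson 95% confidence interval 75.3 to 79.5) lay at a gene end, beside 51.0% of all mock Pol II peaks. Such intervals cover counting error only. Gene-end position was not particular to wide domains. It held for 76.0% of mock peaks of 1000 to 1400 bp and 77.1% at 1500 to 1900 bp, against 32.2% at 100 to 400 bp. Another 232 domains lay inside a locus away from its ends and 114 outside any locus. At 521 domains the ends of 2 or more genes fell together, so that a domain often could not be given to a single gene. In all, 1871 of 24198 genes (7.73%) had an end at a wide domain.

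The RefSeq promoters of genes at these domains (GRCh38.p14) are shown for the widest domains that held a single gene with a single start, and for histone and immediate-early genes, whose domains are followed separately below. Each sequence is the 250 bases before the annotated start, read on the gene's strand, with none of the transcript. Capitals mark 3 motifs or their reverse complements: the TATA box, searched as TATAAA, the CCAAT box, searched by its name, and the GC box, searched as GGGCGG. TNRC18 encodes a large nuclear protein, PTMA the acidic nuclear protein prothymosin alpha, and MICALL2 a protein of actin and membrane traffic. Their windows lie at chr7:5423835-5424084 (minus strand), chr2:231708275-231708524 (plus strand) and chr7:1459471-1459720 (minus strand).
TNRC18: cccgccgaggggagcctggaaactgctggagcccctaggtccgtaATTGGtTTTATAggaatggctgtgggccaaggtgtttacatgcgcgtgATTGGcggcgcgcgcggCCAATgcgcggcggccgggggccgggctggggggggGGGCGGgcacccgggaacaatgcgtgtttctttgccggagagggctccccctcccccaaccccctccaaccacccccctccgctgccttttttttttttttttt
PTMA: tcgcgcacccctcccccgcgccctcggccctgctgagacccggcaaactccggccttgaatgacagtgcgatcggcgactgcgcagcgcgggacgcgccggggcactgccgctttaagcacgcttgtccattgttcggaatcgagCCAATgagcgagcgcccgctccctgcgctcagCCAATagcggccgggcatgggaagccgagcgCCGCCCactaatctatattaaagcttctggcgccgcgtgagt
MICALL2: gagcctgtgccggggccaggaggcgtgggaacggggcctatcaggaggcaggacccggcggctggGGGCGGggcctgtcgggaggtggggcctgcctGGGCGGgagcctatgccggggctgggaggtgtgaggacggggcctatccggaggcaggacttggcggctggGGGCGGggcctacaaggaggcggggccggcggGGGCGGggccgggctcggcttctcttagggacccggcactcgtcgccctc

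H2AC11 and H2AC20 encode H2A histones and H1-4 a linker histone. The windows lie at chr6:27132793-27133042, chr1:149886668-149886917 and chr6:26156079-26156328, all on the plus strand. In each of the 3 a TATAAA began 29 or 31 bases before the start, where TATA boxes are usually found, and a CCAAT lay upstream of it.
H2AC11: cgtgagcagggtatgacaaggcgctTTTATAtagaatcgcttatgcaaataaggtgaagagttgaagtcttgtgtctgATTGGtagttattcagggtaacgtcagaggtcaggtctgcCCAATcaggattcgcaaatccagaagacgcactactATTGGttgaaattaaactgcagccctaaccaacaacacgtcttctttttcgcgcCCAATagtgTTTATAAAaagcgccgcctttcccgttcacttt
H2AC20: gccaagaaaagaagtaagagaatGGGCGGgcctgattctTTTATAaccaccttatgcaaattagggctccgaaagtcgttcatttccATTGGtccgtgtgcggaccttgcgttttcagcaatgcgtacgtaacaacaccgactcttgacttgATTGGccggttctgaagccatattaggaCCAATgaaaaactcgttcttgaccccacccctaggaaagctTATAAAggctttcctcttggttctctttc
H1-4: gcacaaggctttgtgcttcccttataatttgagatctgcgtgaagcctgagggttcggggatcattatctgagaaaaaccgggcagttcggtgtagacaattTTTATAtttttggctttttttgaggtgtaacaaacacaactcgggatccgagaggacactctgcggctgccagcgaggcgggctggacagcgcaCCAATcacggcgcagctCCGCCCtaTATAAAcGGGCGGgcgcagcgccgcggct

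IER2 and JUNB are immediate-early genes, which respond to growth factors without new protein synthesis. JUNB codes for an AP-1 subunit. The windows lie at chr19:13150161-13150410 and chr19:12791236-12791485, both on the plus strand.
IER2: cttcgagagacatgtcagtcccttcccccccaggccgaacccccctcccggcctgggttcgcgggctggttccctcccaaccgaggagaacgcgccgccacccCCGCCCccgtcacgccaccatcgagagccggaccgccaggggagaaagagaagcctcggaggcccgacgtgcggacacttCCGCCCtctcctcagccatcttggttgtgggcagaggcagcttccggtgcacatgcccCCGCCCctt
JUNB: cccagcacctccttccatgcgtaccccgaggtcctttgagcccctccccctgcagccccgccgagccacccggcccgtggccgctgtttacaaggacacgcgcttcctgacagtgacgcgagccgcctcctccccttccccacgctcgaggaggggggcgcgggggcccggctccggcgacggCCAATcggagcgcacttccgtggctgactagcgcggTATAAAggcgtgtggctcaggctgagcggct

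RefSeq promoter windows were found for 1404 of the 1871 genes at wide domains, and some genes had several. GGGCGG was present in 71.2% of the 2099 windows of these genes and in 42.6% of all 35116 windows of the same length. TATAAA was present in 5.96% and 10.7%, CCAAT in 31.5% and 32.0%, the AP-1 motif TGACTCA in 2.86% and 4.20%, and the E-box CACGTG in 8.72% and 6.34%, with both strands searched throughout. The median window held 23 CpG for genes at wide domains and 11 among all promoters. The 14 windows of 11 histone genes at wide domains, taken from a gene list described below, stood apart among these. Of the 14 windows 85.7% held TATAAA, 92.9% held CCAAT and 21.4% held GGGCGG, and the median CpG count was 8. In the 14 windows of immediate-early and AP-1 genes these shares were 21.4%, 42.9% and 57.1%, with a median of 25 CpG. A match is a description of letters and not a binding site. Windows were chosen by gene, and a domain could lie at either end of a gene, so a window need not lie in its domain. Promoters of genes with narrower Pol II peaks were not compared separately.

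The widest domain, chr7:2555101-2567500 in hg19, spanned 12400 bp at LFNG, which encodes a glycosyltransferase that modifies Notch receptors. It held 5700 bp of mock MED26 and 5 EP400 peaks, and 10300 bp of it lay under H3.3. After EP400 siRNA, 6800 bp (54.8%) remained under 5 separate Pol II peaks, and LFNG mRNA read 223 FPKM in mock cells against 89.1 FPKM in depleted cells. A domain of 12100 bp (chr8:145732101-145744200) ran over 6 packed genes that include the DNA helicase gene RECQL4 and kept 52.9% of its base pairs. RECQL4 mRNA read 113 FPKM and 30.5 FPKM. TNRC18 had 11700 bp (chr7:5458501-5470200), of which 74.4% remained.

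A pair of domains inside the PLEC locus, which encodes the cytoskeletal linker plectin, kept more. The first (chr8:145010301-145019000) spanned 8700 bp, and 93.1% remained under 3 peaks, of which the widest, at 5800 bp, was also the widest of the whole EP400 siRNA list. The second (chr8:145022201-145029200) spanned 7000 bp and kept 85.7%. Less remained at the domain shared by CASKIN1, RAB26 and TRAF7 (8500 bp, 41.2%), at FASN and CCDC57 (7000 bp, 44.3%), at CDT1 and APRT (6500 bp, 33.8%) and at SLC25A1 and CLTCL1 (6900 bp, 27.5%). FASN encodes fatty acid synthase, CDT1 a replication licensing factor and SLC25A1 the mitochondrial citrate carrier. The other domains among the 12 widest lay at EEF1D, a translation elongation factor gene (7500 bp, 60% left), at ARHGDIA (6900 bp, 69.6% left) and at the gene cluster around CIAO3 (7500 bp, 61.3% left).

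These 12 domains all overlapped both MED26 and EP400, but the one at MIDN, as wide as the narrowest of them (6500 bp), held no EP400. Their share of base pairs left ranged from 27.5% to 93.1%.

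Among the 114 domains outside annotated loci the widest was chr12:34498501-34504400, of 5900 bp, at a distance of 317265 bp from the nearest locus (ALG10). It kept 81.4% of its base pairs and was mostly under H3K18ac (5400 bp) and H2AZ (4600 bp). The next, chr7:1703601-1708700, spanned 5100 bp and kept 86.3%. Inside the locus of MAFK and TMEM184A a domain of 6200 bp (chr7:1580201-1586400) carried 200 bp of MED26 and no H3K18ac, while 5000 bp lay under H3.3, and 51.6% of it remained.

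Nearly all wide domains met MED26 in mock cells. MED26 overlapped 1490 of 1533 domains by 1 bp or more (97.2%, interval 96.2 to 97.9), beside 46.4% of all mock Pol II peaks. A wide region meets another list more easily, so base pairs were compared too. MED26 covered 44.9% of the domains' base pairs and 39.1% of those of all Pol II peaks. It covered 47.1% at mock Pol II peaks of 1000 to 1400 bp and 47.5% at 1500 to 1900 bp. By base pairs its cover was thus no higher at wide domains than at the peaks nearest in width. The share of the domain under MED26 had a median of 43.5%, with quartiles of 28.6 and 61.9%. After EP400 siRNA, MED26 overlapped 94.5% of the domains (41.0% of all Pol II peaks) and covered 35.3% of their base pairs. Of the MED26 base pairs inside the domains 65.0% remained, and 54.9% of all mock MED26 base pairs.

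EP400 peaks were narrow, with a median of 50 bp, and touched 790 of the domains (51.5%, interval 49.03 to 54.03), beside 12.1% of all mock Pol II peaks. They covered 4.65% of the domains' base pairs and 2.86% of those of all Pol II peaks. A domain with EP400 held a median of 150 bp of it, and the most was 1700 bp, at the shared start region of HNRNPA2B1 and CBX3, which encode an RNA-binding protein and a heterochromatin protein. The share of peaks with EP400 followed width, from 38.9% at 1500 to 1900 bp to 45.4% at 2000 to 2400 bp and 73.5% at 4000 bp or more. An overlap of 1 bp becomes easier with width, and the base pairs under EP400 differed little. They were 4.15%, 4.46% and 4.99% in these classes. Domains with EP400 also carried more MED26: 52.1% of their base pairs, against 36.4% in domains without EP400.

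**Figure D1:**
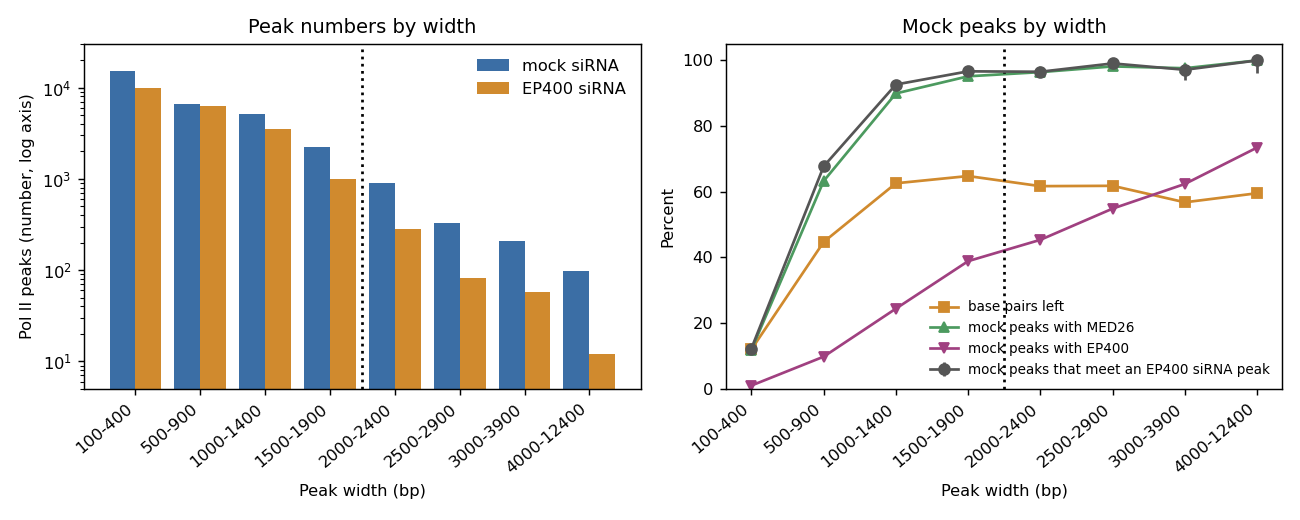
Left, numbers of Pol II peaks by width (bp) in mock cells and after EP400 siRNA, on a log axis. Right, for mock peaks of each width, the percent that overlapped a Pol II peak after EP400 siRNA (with Wilson 95% intervals), the percent of base pairs left, and the percents with MED26 and EP400; the dotted line marks 2000 bp. At 4000 bp or more the mock list had 98 peaks and the EP400 siRNA list 12, while 59.6% of the base pairs were left.

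H3K18ac, an acetylation mark of active promoters and enhancers, overlapped 96.2% of the domains (49.7% of all Pol II peaks) and covered 59.2% of their base pairs. H3K4me1, which marks enhancers and the flanks of promoters, overlapped 30.0% (13.0% of all). H3.3 overlapped 80.4% of the domains in mock cells (34.3% of all) and 8.68% after EP400 siRNA (1.91% of all), and 3.36% of its base pairs inside them remained, close to the 3.93% of all H3.3 base pairs. H2AZ overlapped 72.3% in mock cells (43.7% of all) and 44.4% after EP400 siRNA (28.5% of all), with 28.0% of its base pairs in the domains left and 25.2% of all H2AZ base pairs. By base pairs the order turned for H2AZ, which covered 15.8% of the wide domains and 27.3% of all Pol II peaks in mock cells, and 5.86% and 12.3% after EP400 siRNA.

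The marks occupied different parts of a domain. In the middle 50% of each domain's length MED26 covered 55.9% of base pairs and H3K18ac 68.2%, and in the outer 25% on each side these were 34.0% and 50.2%. H3.3 had the opposite layout, with 17.5% in the middle and 27.9% outside, and so did H3K4me1, with 4.53% and 7.56%. At the centre of the domains 14.7% lay under H3.3, and at 1100 bp before the centre 30.9% did.

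**Figure D2:**
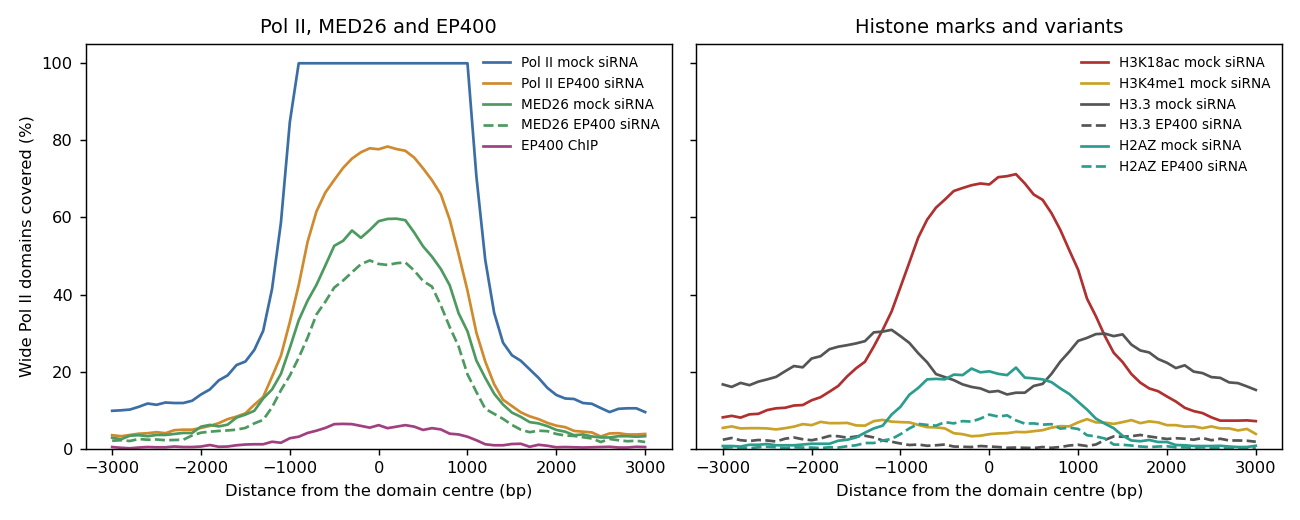
Percent of the 1533 wide Pol II domains covered by each peak list at each distance (bp) from the domain centre, for Pol II, MED26 and EP400 (left) and for histone marks and variants (right); dashed lines are lists after EP400 siRNA where a mock list is drawn solid. MED26 peaks at the centre, H3.3 has 2 shoulders beside a dip, and the Pol II curve after EP400 siRNA is narrower than the mock curve.

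After EP400 siRNA, 1493 of the 1533 domains still overlapped a Pol II peak (97.4%, interval 96.5 to 98.1), beside 48.2% of all mock Pol II peaks. What differed was extent. Of the domains' base pairs 2442000 (60.6%) remained and 1588000 did not. The median domain kept 64.3%, with quartiles of 45.8 and 80.0%. In 1420 domains the widest Pol II peak was narrower than before, and 364 still met a Pol II peak of 2000 bp or more. A single peak remained in 1077 domains, 2 peaks in 339, and 3 or more in 77. The peaks that remained reached only 76600 bp beyond the mock borders.

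These values compare with the rest of the list as follows. Among all mock Pol II peaks 52.0% of base pairs remained. By width, 44.7% remained at 500 to 900 bp, 62.6% at 1000 to 1400 bp, 64.8% at 1500 to 1900 bp, 61.7% at 2000 to 2400 bp and 59.6% at 4000 bp or more, so the share left did not fall steadily with width. Just below the limit, the 291 peaks of 1900 bp kept 65.3% of their base pairs, and just above it the 234 peaks of 2000 bp kept 64.4%. MED26 overlapped 96.9% and 96.6% of these, and EP400 40.9% and 44.0%.

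Domains were chosen in the mock list, so some shrinkage follows from the choice, and the same values were taken in the other direction. The EP400 siRNA list held 429 peaks of 2000 bp or more, the widest 5800 bp, of which 427 overlapped the mock list and 368 a wide mock domain. Of their base pairs 92.6% lay in mock Pol II peaks, against 60.6% in the mock-to-siRNA direction. For all peaks the corresponding values were 84.6% and 52.0%. The ratio of peak numbers differed between widths: the count after EP400 siRNA was 0.644 of the mock count at 100 to 400 bp, 0.951 at 500 to 900 bp, 0.676 at 1000 to 1400 bp, 0.445 at 1500 to 1900 bp and 0.311 at 2000 to 2400 bp. It was 0.247 at 2500 to 2900 bp, 0.271 at 3000 to 3900 bp and 0.122 at 4000 bp or more. Depth, peak calling and Pol II occupancy cannot be told apart in these numbers.

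Less remained towards the borders of the domains. The middle 50% of each domain kept 74.3% of its base pairs and the outer parts 46.9%. Within domains at gene ends, Pol II remained at 83.4% of the base pairs 0 to 500 bp inside a locus end and at 75.7% of those 0 to 500 bp outside it. Further in, 64.1% remained at 500 to 1000 bp, 48.3% at 1000 to 2000 bp and 45.0% beyond 2000 bp. On the outer side the same steps gave 53.2, 43.9 and 41.0%. MED26 covered 61.0% of the base pairs in the first 500 bp inside a locus end and 31.8% at 1000 to 2000 bp, and H3.3 covered 13.6% and 30.8%.

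**Figure D3:**
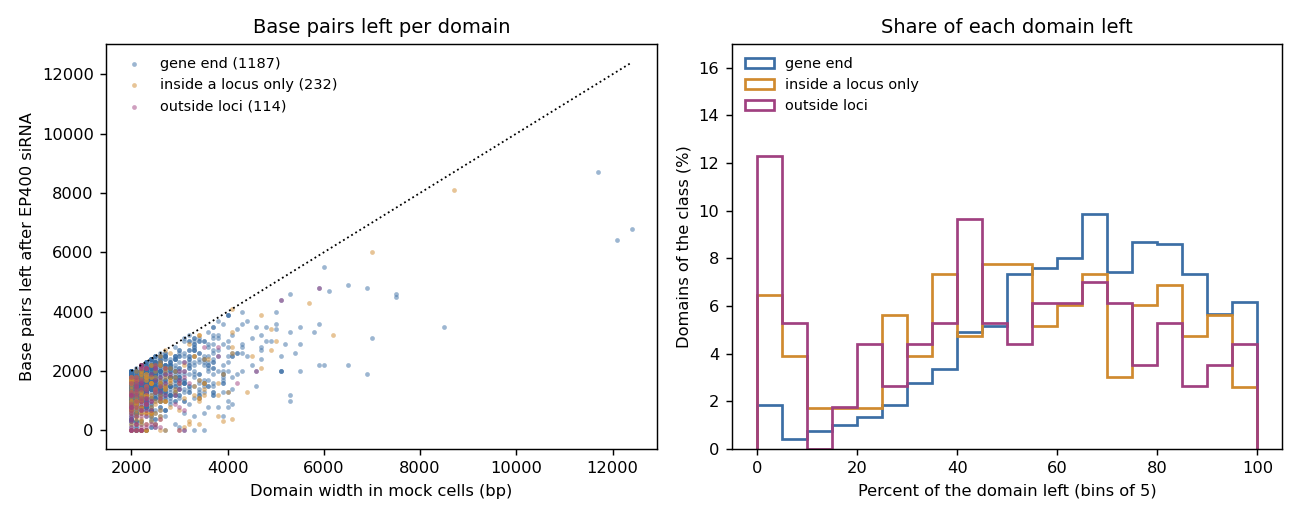
Left, base pairs of each wide domain left under Pol II after EP400 siRNA against its mock width (bp), 1 point per domain, with the dotted line at all base pairs left. Right, the distribution of the percent left in bins of 5, for the 1187 domains at gene ends, 232 inside a locus only and 114 outside loci. Domains at gene ends sit to the right, with 16 at 0 bp left, against 14 and 10 in the smaller classes.

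Pol II remained more often under some marks than beside them. Of the base pairs under mock MED26, 77.8% remained, against 46.5% elsewhere in the domains. Under EP400 peaks 86.3% remained (59.3% elsewhere), under H2AZ 80.6% (56.9%) and under H3K18ac 67.8% (50.1%). The order was turned for H3.3, with 35.4% under the variant and 68.0% elsewhere, and for H3K4me1, with 24.1% and 62.9%. Because marks and remaining Pol II share a layout, the comparison was repeated within parts of the domain. In the middle 50% the values for MED26 were 84.5% and 61.4%, for EP400 91.3% and 73.2%, and for H3.3 49.1% and 79.6%. In the outer parts they were 67.0% and 36.6%, 77.0% and 45.9%, and 26.8% and 54.7%.

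Whole domains showed the same direction. Those with EP400 kept 63.9% of their base pairs and those without it 56.7%. Within widths of 2000 to 2400 bp these were 66.8% and 57.5%, at 2500 to 2900 bp 65.9% and 56.8%, and at 3000 bp or more 59.7% and 54.2%. Domains with EP400 also had more MED26, and the part of each was not tested. The 43 domains without MED26 kept 37.4%, and 51.2% of them had H3K18ac. Across the 1533 domains Spearman's correlation between the share under MED26 and the share left was 0.25, and between width and the share left -0.08; the points share the same 3 libraries, so no p is given.

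Position in the genome also separated the domains. At gene ends 63.2% of base pairs remained, inside loci 52.6% and outside loci 49.0%. H3K4me1 overlapped 24.9%, 43.1% and 57.0% of these classes, in the opposite order. Domains with 1 gene kept 66.6%, those with 2 genes 60.4%, and those with 3 or more genes 57.1%. Chromosomes 17, 19 and 16, which are rich in genes, held 173, 140 and 109 domains and kept 57.2, 55.6 and 56.0%. The lowest value was 49.7% on chromosome 22 (61 domains) and the highest 76.1% on chromosome 18 (15 domains). The same 2 chromosomes were the lowest and among the highest over all Pol II peaks, at 42.0% and 61.0%.

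The 40 domains with 0 bp left and the 41 with all base pairs left differed in their marks. H3K4me1 overlapped 70.0% of the first and 9.76% of the second, and H2AZ 25% and 87.8%. MED26 overlapped 87.5% and 100%, and EP400 32.5% and 48.8%. The widest with 0 bp left was at S100A2, a calcium-binding protein gene (chr1:153537901-153541400, 3500 bp). MED26 covered 3000 bp of it in mock cells and 3000 bp after EP400 siRNA, while the Pol II list had no peak there, and S100A2 mRNA read 653 FPKM and 445 FPKM. RPL3, for a ribosomal protein, had a domain beside its locus end (chr22:39705001-39708300, 3300 bp) with 0 bp left, and its mRNA read 656 FPKM and 680 FPKM. MYEOV (3100 bp) also had 0 bp left, and its mRNA read 295 FPKM and 194 FPKM. None of these 3 genes reached the 2-fold limit in RNA, but they were chosen by width. Of the 13 measured genes whose widest domain had 0 bp left, 8 were at least 2-fold lower and 0 higher, with a median of -1.18. Beside them, 43.9% of genes at wide domains and 22.9% of all genes were lower. Among the 72 genes whose domain kept under 25%, 44.4% were lower, with a median of -0.86. PFKL, a glycolytic enzyme gene, read 149 FPKM and 49.3 FPKM (-1.58).

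At the other end, all base pairs remained in a domain of 4100 bp inside the GNAS locus (chr20:57463601-57467700), which encodes the stimulatory G protein alpha subunit, and in a domain of 3200 bp at TSHZ3, a zinc-finger transcription factor gene. The domain at PATZ1, another zinc-finger gene (3100 bp), the domain inside LARP1 (2700 bp), and those at the kinase gene MAP3K1 (2600 bp) and at TLNRD1 (2500 bp) were also covered in full. PATZ1 mRNA read 27.3 FPKM in mock cells against 12.3 FPKM in depleted cells, and TLNRD1 mRNA 47.9 FPKM and 20.5 FPKM.

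The widest domains without EP400 lay at MIDN (6500 bp, 75.4% left), in the MAFK locus described above, and at ALDH3B1, an aldehyde dehydrogenase gene (5500 bp, 36.4% left). Next came the tubulin gene TUBB3 with MC1R (5100 bp, 49.0% left) and PTOV1 with its neighbours (5100 bp, 39.2% left). Among the widest without MED26 were those at DUS1L and GPS1 (3800 bp, 21.1% left), at CLIC3 and PAXX (3200 bp, 43.8% left), at EME2 and SPSB3 (3000 bp, 36.7% left) and at LZTR1 and THAP7 (3000 bp, 3.33% left). None of these 4 domains held an EP400 peak, and the one at CLIC3 and PAXX alone among the 4 had H3K18ac.

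Lists of genes with known roles were followed next. They were drawn up with results of these data known and are described by their counts, which hold for listed genes and not for whole families. Replication-dependent histone genes are transcribed in S phase from clusters. Their list held 18 genes and left out others at wide domains, such as H2AC7 and H2BC7. The listed histone genes had an end at a wide domain for 12 of 17 genes (70.6%), beside 7.73% of all genes. Immediate-early and AP-1 genes did for 18 of 34, chromatin and nucleolar proteins for 10 of 22, actin and contractile proteins for 12 of 27, and glycolytic enzymes for 5 of 15. The shares were smaller for splicing factors (9 of 34), extracellular matrix (6 of 24), ribosomal proteins (12 of 55), pausing and elongation factors (4 of 26) and the TIP60-EP400 complex itself (1 of 17, MRGBP). The share over all genes was higher among expressed genes. It was 13.0% of the 11671 genes analysed for RNA and 22.5% in the highest of 5 groups of mean FPKM. The lists were not compared with genes of like abundance.

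The 9 domains at listed histone genes had the most MED26 among the lists and kept little Pol II. MED26 covered 88.9% of their base pairs, and 36.3% of the Pol II base pairs remained. At H3C4, H2AC7 and H2BC7 (chr6:26195701-26201000, 5300 bp) 1000 bp remained in 2 peaks, while MED26 covered 4300 bp in mock cells and 3600 bp after EP400 siRNA. H1-4 and H2BC5 shared 3200 bp, of which 28.1% remained; H2BC12 kept 18.5%, H4C8 4.76% and H3C10 0 bp. In contrast H2AC11 kept 75.8% and the chromosome 1 pair H2AC20 and H2BC21 81.8%. Over all 10 chromosome 6 domains with a histone gene, chosen after their values were seen, 25.7% of base pairs remained, MED26 covered 87.1% before and 78.2% after, and 1 in 10 domains (10%) met H2AZ. For the 58 other chromosome 6 domains these were 71.3%, 50.4%, 41.7% and 79.3%. Histone genes lie close together and resemble each other, so how reads were assigned among them was not tested.

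The 18 immediate-early and AP-1 domains kept 76.4% of their base pairs, from 36.4% at MAFK to 100% at DUSP1 and IER5, and 9 of 18 held EP400, beside 51.5% of all wide domains. DUSP1 encodes a MAP kinase phosphatase. JUNB (3400 bp) kept 91.2%, JUN (3300 bp) 84.8%, JUND (3300 bp) 87.9%, MYC (4100 bp, MED26 over all 4100 bp) 78.0% and IER2 (4900 bp) 61.2%. Splicing factor domains kept 79.6%, and each of the 9 held EP400; HNRNPU kept all 2100 bp and HNRNPL 56.4% of 3900 bp. Chromatin and nucleolar protein domains kept 79.1%, with HMGA1, an AT-hook protein gene, at 100% of 2400 bp and the nucleolin gene NCL at 87.0%. Actin and contractile domains kept 70.2%, among them ACTG1 (72.9% of 4800 bp), ACTB (61.9% of 4200 bp) and the cofilin gene CFL1 (59.6% of 4700 bp).

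Ribosomal protein domains kept less, 45.7% in all. They ranged from 0 at RPL3, 20% at RPL13 and 24% at RPL18 to 76.9% at RPL8. Matrix gene domains kept 51.1%, from 34.5% at SERPINH1, a collagen chaperone gene, to 72.4% at COL1A1, and 1 of the 5 held EP400. Among the factors that control pausing, HEXIM1 (an inhibitor of P-TEFb) kept 65.6%, CDK9 (its kinase) 70.8%, and NELFB and NELFE (subunits of the pausing factor NELF) 50% and 36.4%. MRGBP kept 57.4% of 4700 bp.

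**Figure D4:**
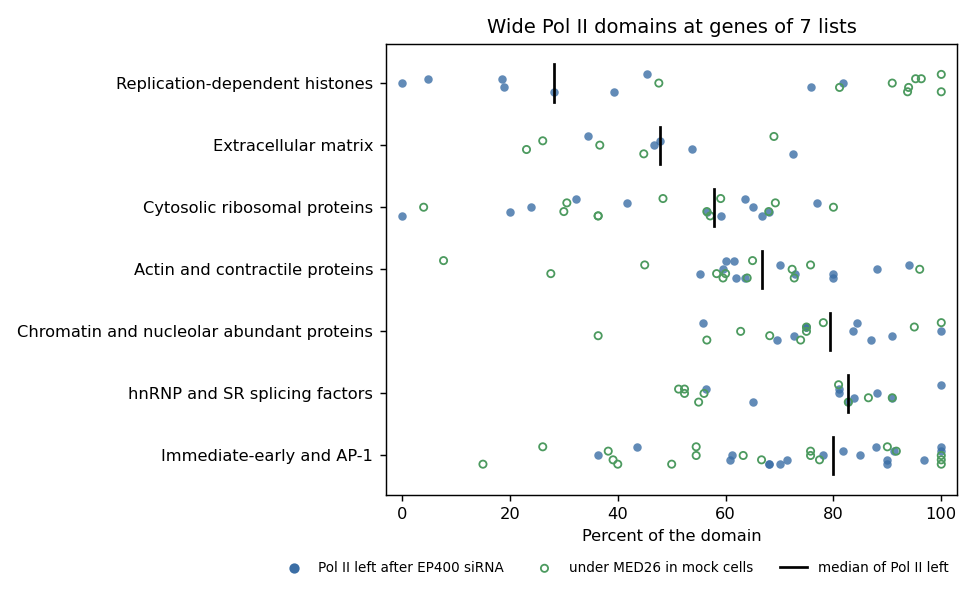
Percent of each wide domain left under Pol II after EP400 siRNA (filled) and percent under MED26 in mock cells (open), 1 pair of points per domain, for domains at the genes of 7 lists; black lines are medians of the percent left. Histone domains combine open points near 100% with filled points mostly below 50%, while the immediate-early, splicing and chromatin lists lie to the right.

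RNA was compared for genes with an end at a wide domain. Of the 1871 genes 1517 had a mean of 1 FPKM or more over both libraries and an estimate in both, 332 were below 1 FPKM and 22 had a failed estimate. They made up 13.0% of the 11671 genes analysed. In RNA from whole cultures, fewer expressing cells and less RNA per cell cannot be told apart. Their median was 23.1 FPKM in mock cells, against 7.67 FPKM for all genes. The RNA ratio is the log2 of the EP400 siRNA value over the mock value after 1 FPKM was added to each, and it understates differences of low genes. The median ratio was -0.88 at wide domains, -0.11 at genes with narrower Pol II peaks only and -0.04 at genes with no Pol II peak at an end, and -0.20 over all genes.

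Of the 1517 genes 666 (43.9%) were at least 2-fold lower after EP400 siRNA and 32 (2.11%) at least 2-fold higher, beside 22.9% and 6.11% of all genes. The split depended on scale. Rescaling each library to the same sum (TPM) gave 177 lower and 211 higher, beside 5.97% and 31.5% of all genes, since it raised the median of all genes to 0.48; the median at wide domains was then -0.20. Median centring gave 488 lower and 69 higher, beside 15.6% and 10.8% of all genes, with a median of -0.68. Centring by local gene density gave 262 lower and 58 higher, beside 10.98% and 8.83% of all genes, with a median of -0.27. The median at wide domains lay below that of all genes under each of these scalings. The authors gave confidence limits per transcript row, and these were summed per gene here. The summed limits of the 2 libraries were apart for 1 gene that was lower and 0 that were higher. Such sums are not confidence limits of a gene, so this count is a description only.

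Abundant genes had lower ratios in general and wide domains held more of them, so the ratio was also read within 5 equal groups of mean FPKM. Wide domains took 6.38% of the genes of the lowest group and 22.5% of the highest. In the lowest group the median ratio was -0.10 at wide domains and 0.25 at narrower peaks. In the middle group these were -0.64 and -0.02, and in the highest -1.17 and -0.88. The median at wide domains was the lower in each of the 5 groups, by 0.29 to 0.63 on the log2 scale.

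**Figure D5:**
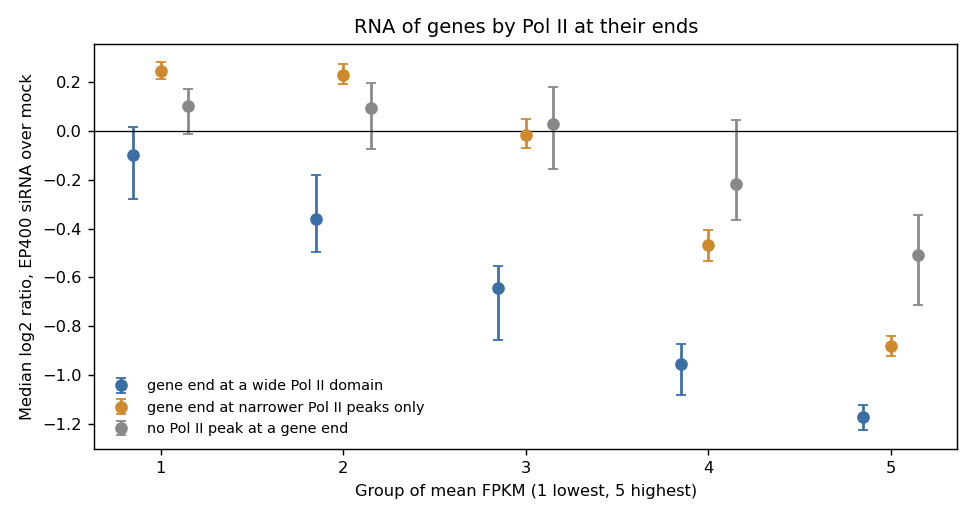
Median log2 ratio of RNA (EP400 siRNA over mock, with a pseudocount of 1 FPKM) in 5 groups of mean FPKM, for genes with an end at a wide Pol II domain, at narrower Pol II peaks only, or at no Pol II peak; bars are order-statistic 95% intervals of the median over genes, which are not replicates. Genes at wide domains are lowest in each group, from -0.10 to -1.17.

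The ratio varied among the domains themselves. It was -1.14 for the 355 genes at domains of 3000 bp or more and -0.77 at 2000 to 2900 bp, with median mock values of 40.8 and 20.1 FPKM. Genes alone at their domain (579) had -0.67 and genes that shared one (938) -0.97. Domains with 75% or more of their base pairs left had -0.43 and those with 25 to 50% left -1.08 (interval -1.20 to -0.95). Those under 25%, with 72 genes, had -0.86 (interval -1.18 to -0.66). The intervals of the 2 classes with less than 50% left overlapped, so their order was not resolved. At 50 to 75% left, 326 of 652 genes were at least 2-fold lower. Among the 579 genes alone at their domain, Spearman's correlation between the share left and the ratio was 0.31, as a description. Abundance was not held equal in these comparisons of width and share left, and its part in them was not tested. The median was -0.83 where the domain held EP400 and -0.92 where it did not, with overlapping intervals (-0.90 to -0.75 and -1.01 to -0.87). By chromosome the medians ran from -1.30 on chromosome 16 and -1.20 on chromosome 19 to -0.02 on chromosome 14 and 0.04 on chromosome 5. All genes of chromosomes 16, 19, 14 and 5 had medians of -0.78, -1.05, -0.01 and 0.21, so chromosomes 16 and 19 were low and 14 and 5 higher among all genes too.

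The genes with the lowest ratios did not lie at the domains with the least Pol II left. LBH, a transcriptional cofactor gene, had 83.8 FPKM in mock cells against 3.75 FPKM in depleted cells (ratio -4.16), and its domain (chr2:30453401-30455800) kept 91.7% of 2400 bp. SAMD11 (-2.95), with 91.7% left, and EPS8L2 (-2.93), an actin regulator gene with 86.4% left, were alike in this. MISP, a spindle-positioning gene, read 44.5 FPKM and 3.67 FPKM (-3.29) at a domain that kept 56.0%. The small heat shock protein gene HSPB1 read 1799 FPKM and 238 FPKM (-2.91), and 52.0% of its domain remained. KREMEN2 (-3.14), SOCS1 (-2.87), a suppressor of cytokine signalling, and ROGDI (-2.82) completed the 8 lowest, with 51.1, 67.6 and 54.5% left.

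The 8 highest were LPXN (7.78 FPKM in mock cells against 56.5 FPKM in depleted cells, ratio 2.71), TRIB1 (1.83), PHLDA1 (1.60), LINC00941 (1.60), RTN4 (1.48), BCAR3 (1.45), FOXD1 (1.43) and SLC38A2 (1.40). LPXN encodes a focal adhesion adaptor, TRIB1 a pseudokinase and SLC38A2 an amino acid transporter. Their domains kept 60.9% to 91.3%.

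RNA of the lists followed the share of Pol II left only in part. Their counts are to be read beside the 43.9% of all genes at wide domains, and the 22.9% of all genes, that were at least 2-fold lower. Of 12 actin and contractile genes at wide domains 8 were at least 2-fold lower and 0 higher. ACTB read 8214 FPKM and 3348 FPKM, and MYL9, a myosin light chain gene, 216 FPKM and 30.0 FPKM (ratio -2.81). The domain counted for MYL9 was shared with DLGAP4, SLA2, TGIF2 and RAB5IF among others, so it cannot be given to MYL9 alone. On TPM 2 of the 12 actin and contractile genes were lower. Of 6 matrix genes 4 were lower, COL1A1 with 376 FPKM and 60.8 FPKM (-2.61) and COL5A1 with 42.2 FPKM and 6.83 FPKM (-2.46), and 2 of 6 on TPM. Of 12 ribosomal protein genes 7 were lower and 0 higher, with a median of -1.08, and 0 were lower on TPM or on centring by gene density. Of 8 splicing factor genes measured 0 were 2-fold different, with a median of 0.14, and on TPM 3 were higher. Of 17 immediate-early and AP-1 genes 3 were lower and 2 higher, with a median of -0.22. On TPM 1 was lower and 6 of 17 were higher (median 0.54), beside 31.5% of all genes higher (median 0.48). On centring by gene density 2 were lower and 4 higher (median 0.32). MYC, a growth-promoting transcription factor gene, read 64.4 FPKM and 164 FPKM (1.33), KLF10 4.36 FPKM and 10.3 FPKM (1.07), and JUND 119 FPKM and 25.9 FPKM (-2.16). Of the 9 histone genes measured 2 were lower and 0 higher, with a median of -0.32. That median was 0.24 on TPM, below the 0.48 of all genes on that scale, and 0.28 on centring by gene density. H2BC12 read 187 FPKM and 192 FPKM at a domain of which 18.5% remained.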

How the data were processed

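The peak lists were deposited by the authors as hg19 chromosome, start and end, with no score, in steps of 100 bp (50 bp for EP400). The peak caller is not given in the sources used here. RNA values are FPKM with confidence limits and a status, deposited by the authors as a table with no counts, so the depth is unknown. Bowtie 0.12.9, TopHat2 2.0.8, Cuffdiff 2.0.2 and hg19 are named per the submitters' processing notes. The 4 inputs were not analysed here.

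Lists were compared by shared positions (1 bp or more) and by base pairs covered (Python 3.11.15, pandas 2.3.3, numpy 2.4.6, scipy 1.17.1). Width is end minus start plus 1. Rows of the RNA table shorter than 200 nt were left out, FPKM were summed per gene, genes with a failed estimate (122) were dropped, and a mean of 1 FPKM or more was required. RefSeq identifiers were matched to symbols for 47555 of 48669 rows. The pseudocount was 1 FPKM and the limit 2-fold. The overlap and ratio code was tested on simulated data.

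Named genes were those at the 12 widest domains, at the 6 widest with 0 and with all base pairs left, at the 5 widest without EP400 and without MED26, the 8 highest and 8 lowest ratios at a mean of 5 FPKM or more, and 3 per list, less 1 domain not reported here; widest domains outside or inside loci and further list members were added after seeing their values, as were the promoter sets. The members and the lists were chosen with earlier results of these data known. Alternatives were widths of 1500 and 3000 bp, joined peaks, gene ends of 1 and 5 kb, any overlap with the locus, cover of 0.5 or more, the leading chromosome left out, pseudocounts of 0.1 and 0.5, other filters and other scalings.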

Additional observations from a re-analysis of the deposited data

How the results depend on the processing

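With 1 library per condition no replicate could be left out. No paired analysis was possible because the EP400 immunoprecipitations and inputs share numbers but came as 1 list or were not analysed here, and every other group has 1 library. With a width of 1500 bp there were 3786 domains (MED26 96.0%, EP400 44.0%, median ratio -0.61, 130 genes higher, 1170 lower), and with 3000 bp 308 domains (MED26 98.4%, EP400 65.9%, base pairs left 57.9%, median -1.14, 5 higher, 216 lower). Joining peaks within 500 bp gave MED26 94.6%, EP400 46.3%, a Pol II peak left at 95.4% and base pairs left 51.0%, with the joined gaps counted as domain. Gene ends of 1 kb took 74.8% of domains and of 5 kb 82.6%. When 0.5 or more of a domain had to be covered, MED26 qualified in 42.5%, EP400 in 0.326% and Pol II after EP400 siRNA in 71.3%. A pseudocount of 0.1 gave a median of -0.97 and 54 genes higher, no filter -0.64, a mean FPKM of 5 or more -1.04, and short rows 62 genes higher. Median centring gave -0.68 and 69 higher; TPM -0.20, 211 higher and 177 lower; gene density -0.27, 58 and 262. The following were chosen after seeing the data: genes alone at their domain (-0.67, 16 higher, 208 lower), centring by chromosome (-0.42, 61, 375) and by 5 groups of mean FPKM (-0.36, 100 higher, 290 lower). The cause of these shifts was not tested, beyond that other widths and genes alone change the number of members. The shares over all genes moved with the setting too. Centring by chromosome left 13.5% of all genes lower and 9.96% higher, and centring by the 5 groups 12.01% and 10.2%. A pseudocount of 0.1 gave 11.3% of all genes higher, and short rows 7.25%. The median ratio at wide domains was below 0 under every alternative run. The unknown depth limits all peak widths.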

Other observations

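Small numbers of Pol II peaks were wide after EP400 siRNA and not in mock cells. Of the 429 peaks of 2000 bp or more in the EP400 siRNA list, 368 met a wide mock domain and 2 met no mock Pol II peak. The widest of the others was 4900 bp at chr8:144997601-145002500, with 2000 bp under mock Pol II. The next was 3300 bp at EPB41 and TMEM200B. Others, chosen after their values were seen, were 3000 bp at INTS1, which encodes a subunit of Integrator, with 500 bp under mock Pol II, and 2500 bp at TWIST2, a helix-loop-helix transcription factor gene, with 1400 bp. A peak of 2900 bp at chr22:50718801-50721700 had no mock Pol II under it.

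Wide mock domains often had close neighbours: 445 of 1533 (29.0%) had another mock Pol II peak within 500 bp, against 22.9% of all mock Pol II peaks.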
